A study of Klebsormidium nitens with 6 samples.

Results

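The genes described here had few transcripts in mock-treated Klebsormidium nitens and at least 4-fold more after exposure to OPDA (12-oxo-phytodienoic acid). They were picked from the authors' normalized count table by their own values. A gene qualified with a mock mean under 240 normalized counts, an OPDA mean of at least 24, a ratio of means (each plus 1) of at least 4, and every OPDA value above every mock value. Of 17152 genes in that table, 42 met these conditions. A normalized count is a read count divided by the size factor of its library, and 1 CPM corresponded to 23.9 normalized counts on average. The levels are per gene and not per length, so differences in level between genes also carry differences in transcript length.

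K. nitens is a filamentous streptophyte alga, from the group of green algae that includes the relatives of land plants. Discs of alga from plates were shaken for 2 hours in liquid 0.5 Gamborg's B5 medium, either without OPDA (mock) or with 25 µM OPDA. The labels name no genetic change, and both groups shared growth, shaking and harvest. The mock group had 3 libraries, numbered 1, 2 and 3, and the OPDA group had 3, numbered 1, 2 and 4. Their totals ranged from 23693021 to 24169072 counts. Nothing in the labels tells whether replicates were separate cultures, and p-values rest on a spread between libraries that may be technical.

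OPDA is made from linolenic acid and is the precursor of jasmonate in vascular plants. It carries a carbonyl group joined to a carbon double bond, a reactive, electrophilic unit whose double bond can add thiols of glutathione and proteins. In Arabidopsis, OPDA and related electrophilic oxylipins raise detoxification and stress genes in part without COI1, the jasmonate receptor, and TGA transcription factors take part in that response. The series title places the treatment of the alga in this COI1-independent context and in that of heat tolerance. The gene IDs of K. nitens come without product names. Each of the 42 could be matched to a locus tag of assembly ASM70883v1, whose table states no function, and no role is stated for any of them.

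The 42 genes were low in mock but seldom silent. Only 1 of them had a mock library without a read, and 10 had at most 10 raw reads in every mock library. The mock means ran from 1.62 to 189.5 normalized counts with a median of 27.7. The OPDA means ran from 26.4 to 11804 with a median of 293. By mock mean the genes ranked between 10429 and 12194 of 17152, and by OPDA mean between 272 and 11432. In OPDA, 11 genes reached a mean of at least 1000 normalized counts, 22 reached at least 240 and 15 stayed under 100.

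The ratio of the OPDA mean to the mock mean ran from 4.18 to 176 with a median of 8.52. It was at least 8 in 23 genes, at least 16 in 13 and at least 64 in 3. The lowest OPDA value was at least 2 times the highest mock value in 41 genes and at least 10 times in 11. All of these sizes were used to pick the genes and are given without a test. All 42 passed edgeR's filter on low counts and all 42 were past its adjusted threshold as higher in OPDA, where 26.5% of the 11752 genes tested were, or 17.9% of the 1649 tested genes with a mock mean under 240. All 3 OPDA values lay above all 3 mock values in 31.0% of the tested genes. For the 42 genes the rule fixed the lack of overlap and largely set the edgeR calls, and nothing is read from either.

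**Figure D1:**
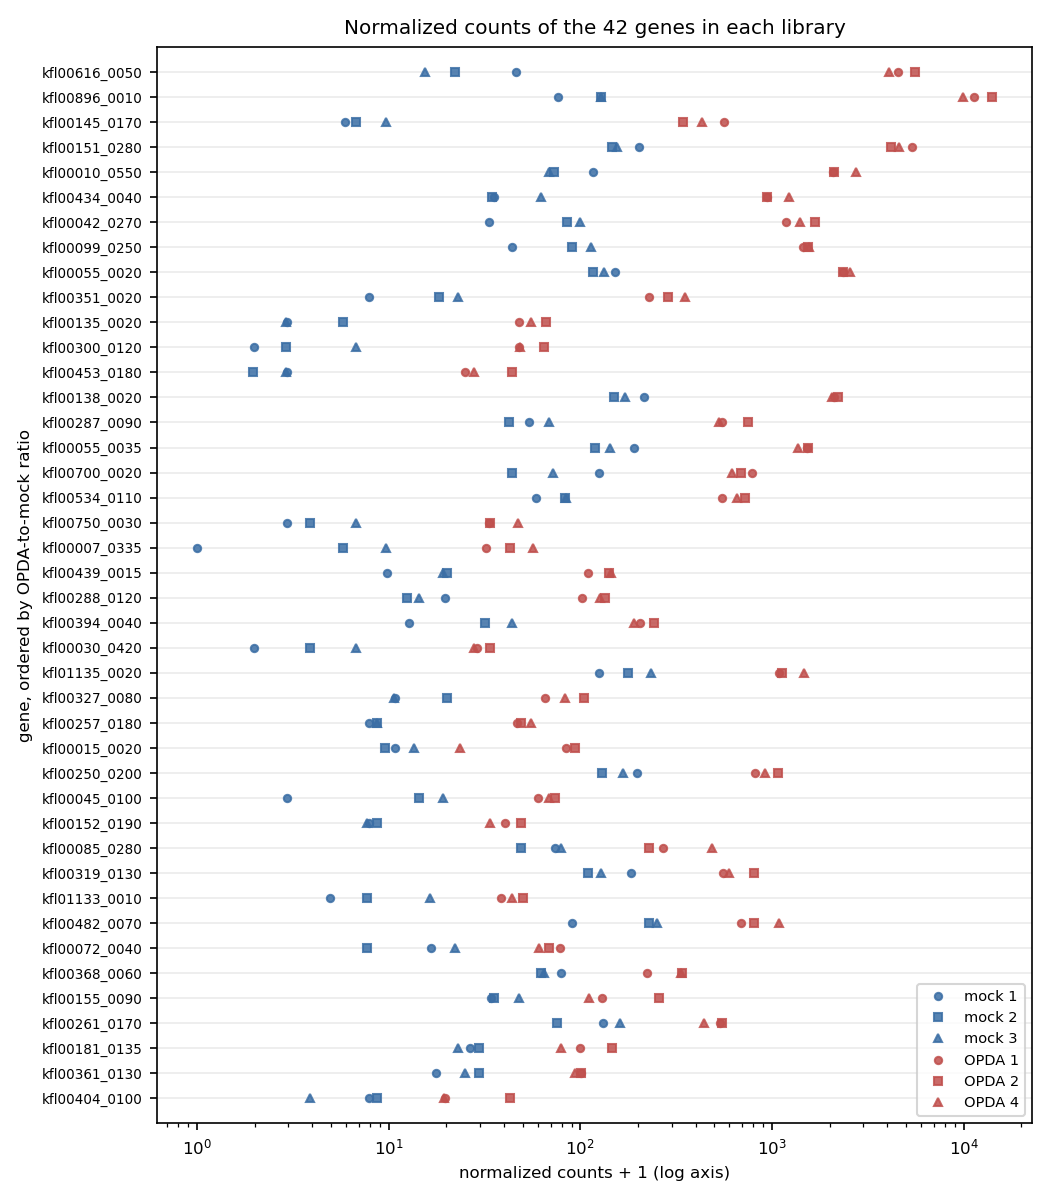
Normalized counts plus 1 (log axis) of each of the 42 genes in the 3 mock (blue) and 3 OPDA (red) libraries. Genes are ordered by the ratio of means (each plus 1). Blue and red points do not overlap in any row, as the rule requires, and the top row, kfl00616_0050, runs from 14.4 normalized counts in mock replicate 3 to 5606 in OPDA replicate 2.

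The highest ratio belonged to kfl00616_0050_v1.1 (KFL_006160050). It had 45.2, 21.1 and 14.4 normalized counts in mock replicates 1, 2 and 3, and 4520, 5606 and 4078 in OPDA replicates 1, 2 and 4. The means were 26.9 ± 16.2 and 4735 ± 787 (SD, n = 3 each), and the OPDA mean was 176 times the mock mean. Mock replicate 1 was the highest of the mock libraries, and the smallest OPDA value was 90.2 times that library. Its rank among all genes went from 11465 in mock to 890 in OPDA.

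The most abundant of the 42 in OPDA was kfl00896_0010_v1.1 (KFL_008960010). Its values were 75.6, 127.5 and 126.9 normalized counts in mock against 11367, 14095 and 9949 in OPDA. The means were 110.0 ± 29.8 and 11804 ± 2107 (SD, n = 3 each), and the OPDA mean was 107 times the mock mean. Here mock replicate 1 was the lowest mock library, the opposite of kfl00616_0050_v1.1. The gene moved from rank 10868 to rank 272.

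The third of the genes with a ratio of at least 64 started from a few reads. For kfl00145_0170_v1.1 (KFL_001450170) the reads numbered 5, 6 and 9 in mock against 543, 335 and 417 in OPDA. The normalized means were 6.44 ± 1.96 and 445 ± 112 (SD, n = 3 each), 69.2 times apart. All 3 mock libraries were low together, and OPDA replicate 1 was the highest.

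Next in ratio was kfl00151_0280_v1.1, with 200.4, 144.8 and 154.8 normalized counts in mock against 5355, 4163 and 4572 in OPDA, a ratio of means of 28.2. It was the third gene of the set among the 1000 most abundant in OPDA, at rank 903, and no gene of the set was among them in mock. The gene kfl00010_0550_v1.1 had 115.9, 71.9 and 67.3 normalized counts in mock against 2075, 2118 and 2747 in OPDA, a ratio of means of 27.2. In both, mock replicate 1 was the highest mock library and the OPDA libraries differed from each other by less than 1.5 times.

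In kfl00434_0040_v1.1 the mock values were 34.4, 33.6 and 61.5 normalized counts and the OPDA values 942, 935 and 1229 (log2 fold change 4.58, SE 0.22). The gene kfl00055_0020_v1.1 had 150.3, 116.0 and 131.7 in mock against 2338, 2348 and 2549 in OPDA, a ratio of means of 18.2. The gene kfl00138_0020_v1.1 had 213, 149.6 and 170.2 in mock against 2110, 2211 and 2049 in OPDA, a ratio of means of 12.0. The last 2 were among the steadiest of the set, with OPDA values within 1.09 and 1.08 times of each other. Fitted log2 fold changes were 4.18 ± 0.09 for kfl00055_0020_v1.1 and 3.58 ± 0.10 for kfl00138_0020_v1.1 (SE, edgeR), against 7.46 ± 0.31 for kfl00616_0050_v1.1 and 6.74 ± 0.24 for kfl00896_0010_v1.1.

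A few of the genes held most of the reads. In OPDA, kfl00896_0010_v1.1 alone made up 27.7% of the summed means of the 42 genes, the top 3 made up 49.9% and the top 6 made up 66.0%. The same 6 genes made up 28.6% of the summed mock means. The 42 genes took 0.0102%, 0.0096% and 0.0117% of all counts in mock replicates 1, 2 and 3. They took 0.165%, 0.186% and 0.167% in OPDA replicates 1, 2 and 4. Without kfl00896_0010_v1.1 the other genes took 0.0100% ± 0.0011 of mock counts and 0.125% ± 0.0047 of OPDA counts (SD, n = 3 each). The difference follows from how the genes were picked.

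**Figure D2:**
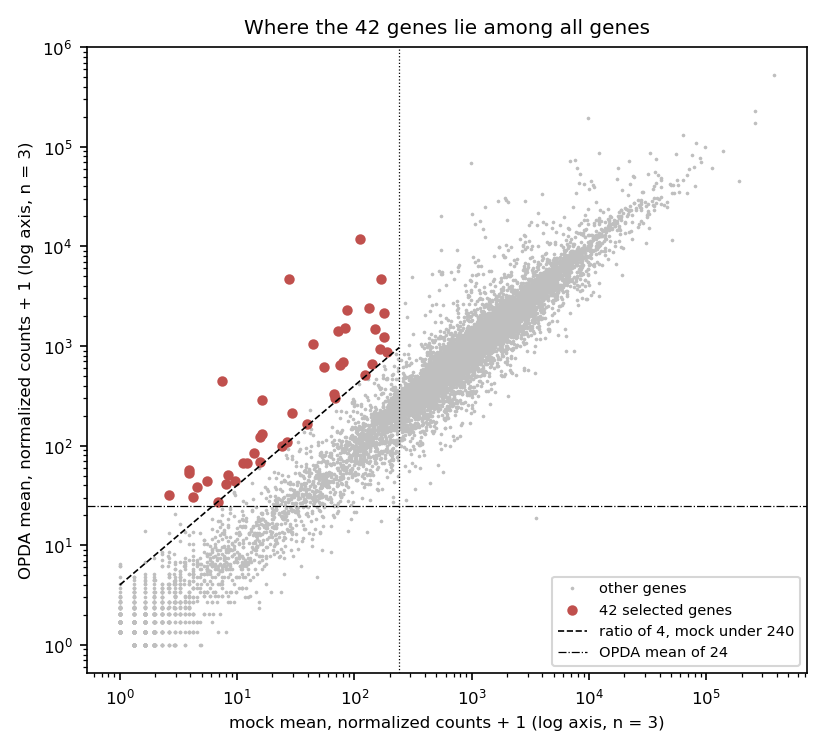
Mean normalized counts plus 1 in OPDA against mock (log axes, n = 3 libraries each) for the 42 genes (red) and all other genes with a read (grey). The vertical, horizontal and dashed lines are the limits of 240, 24 and a ratio of 4, and the red points end at a mock mean of 189.5.

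The least expressed genes had a mock mean under 24 normalized counts, about 1 CPM. These were 19 of the 42, with a median of 7.41 in mock and 55.6 in OPDA. The other 23 had a median of 81.6 in mock and 936 in OPDA. The median ratio of means was 8.28 in the first group and 8.78 in the second. The rule set the same lower limit on the ratio in both groups. Its OPDA minimum also asked for larger ratios from the genes lowest in mock. The groups were split by mock level, so with similar ratios their OPDA levels differ as well. For these reasons no conclusion is drawn from the similar ratios or the different OPDA levels.

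The lowest mock mean was that of kfl00453_0180_v1.1, with 2, 1 and 2 raw reads in mock against 23, 42 and 26 in OPDA. The gene kfl00300_0120_v1.1 had 1, 2 and 6 raw reads in mock against 45, 62 and 46 in OPDA. The gene kfl00135_0020_v1.1 had 2, 5 and 2 in mock against 45, 64 and 53 in OPDA. These 3 had ratios of means between 18.2 and 19.3, but a single mock read more or less would move them.

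The gene kfl00030_0420_v1.1 had 1, 3 and 6 raw reads in mock against 27, 32 and 26 in OPDA. In kfl00750_0030_v1.1 the reads numbered 2, 3 and 6 in mock against 31, 32 and 45 in OPDA. The gene kfl00007_0335_v1.1 was the single one with an empty mock library, with 0, 5 and 9 raw reads in mock against 30, 41 and 54 in OPDA. In all 3, mock replicate 1 was the lowest and mock replicate 3 the highest mock library. Their fitted log2 fold changes were 3.13 ± 0.47, 3.34 ± 0.43 and 3.22 ± 0.54 (SE, edgeR), with errors larger than those of the 4 abundant genes fitted above.

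Some genes lay close to a limit of the rule. Just inside the ratio of 4 were kfl00404_0100_v1.1 at 4.02, which was also nearest to the OPDA limit with a mean of 26.4, and kfl00361_0130_v1.1 at 4.08. Just outside it were kfl00173_0330_v1.1 at 3.88 and kfl00042_0290_v1.1 at 3.81. Nearest under the mock limit were kfl00482_0070_v1.1 at 189.5 and kfl01135_0020_v1.1 at 177.9 normalized counts, and nearest above it kfl00439_0010_v1.1 at 267.6 and kfl00007_0280_v1.1 at 277.2. The gene kfl00404_0100_v1.1 had 7, 8 and 3 raw reads in mock against 18, 41 and 18 in OPDA, and kfl00361_0130_v1.1 had 17, 30 and 25 against 96, 98 and 90. The next gene inside the OPDA limit was kfl00030_0420_v1.1 at 29.2 normalized counts, and the nearest outside were kfl00035_0125_v1.1 at 19.6 and kfl00016_0420_v1.1 at 15.4. A single gene, kfl00138_0160_v1.1, failed because its groups overlapped, with a lowest OPDA value of 70.9 and a highest mock value of 85.6. Of genes that failed 1 condition alone, 289 missed the ratio, 78 had a mock mean of 240 or more and 9 had an OPDA mean under 24. The 78 more expressed genes had a median ratio of means of 6.61.

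The narrowest gap between groups was in kfl00015_0020_v1.1. It had 9.82, 8.63 and 12.5 normalized counts in mock against 83.1, 93.2 and 22.6 in OPDA. OPDA replicate 4 stood well below the other 2 OPDA libraries and was 1.81 times the highest mock value. The next narrowest was kfl00155_0090_v1.1, with 33.4, 34.5 and 47.1 in mock against 129, 255 and 110.0 in OPDA. In it, OPDA replicate 2 stood above the other 2 OPDA libraries.

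Mock libraries differed more among themselves in these genes than OPDA libraries did. The median SD of log2(normalized count + 1) over the 42 genes was 0.44 in mock and 0.23 in OPDA. Over all tested genes it was 0.08 and 0.09. Low counts alone spread values, and the rule placed these genes at higher counts in OPDA than in mock. The mock and OPDA spreads are therefore not compared at like levels. The genes are set here beside other tested genes in the same range of mock means, which does not match their OPDA levels. Between 24 and 240 normalized counts, the median SD in mock was 0.38 for 23 genes of the set and 0.17 for 1371 others, and in OPDA it was 0.23 and 0.21. The genes of the set had the lower median mock mean in that range, 81.6 against 121.4. Under 24 normalized counts, the median SD in mock was 0.58 for 19 genes of the set and 0.39 for 236 others, whose median mock means were 7.41 and 15.5. In OPDA it was 0.25 for the genes of the set and 0.41 for the others. Under 24, genes of the set could pass the filter on low counts through their OPDA reads. Genes that did not rise needed enough reads in mock as well, so a steadier mock level in the others is partly built in. These are descriptions and carry no test.

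Part of that spread sat in mock replicate 1, and its values also went into the rule. Its value was at least 2-fold below the mean of mock replicates 2 and 3 in 12 of the 42 genes and at least 2-fold above it in 2. Among the 1607 other tested genes with a mock mean under 240 the shares were 2.99% and 2.61%. Under 24 normalized counts, mock replicate 1 was at least 2-fold below in 8 of 19 genes of the set, against 11.4% of others. Between 24 and 240 it was so in 4 of 23 genes of the set, against 1.53% of the others. The filter on low counts bears on the comparison under 24, and so on that over all low genes. Genes of the set could pass the filter through their OPDA reads, and 10 had at most 10 raw reads in every mock library. Genes that did not rise needed enough reads in mock as well. No conclusion is drawn from those differences. Mock replicate 3 was the highest mock library in 22 of the 42 genes. It was the highest in 35.2% of the other tested genes with a mock mean under 240 and in 32.6% of all tested genes. On the OPDA side, replicate 2 was the highest library in 26 of the 42 genes. Its shares were 39.0% of those other genes and 33.9% of all tested genes. Whether handling, culture or depth of these libraries moved with this was not tested. In total, mock replicates 1, 2 and 3 had 23963595, 24169072 and 23981871 counts.

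The 4 better expressed genes with a low mock replicate 1 gave the plainest cases. The gene kfl00042_0270_v1.1 had 32.4, 84.4 and 99.0 normalized counts in mock against 1185, 1682 and 1398 in OPDA. In kfl00099_0250_v1.1 the values were 43.2, 89.2 and 112.5 in mock against 1458, 1533 and 1564 in OPDA. These 2 had ratios of means of 19.8 and 18.6.

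The gene kfl00394_0040_v1.1 had 11.8, 30.7 and 43.3 normalized counts in mock against 204.7, 240.8 and 189.1 in OPDA. In kfl00482_0070_v1.1 they were 89.4, 228 and 251 in mock against 692, 800.2 and 1090 in OPDA. In each of the 4, mock replicate 1 lay below mock replicates 2 and 3. In kfl00394_0040_v1.1 mock replicates 2 and 3 also differed from each other, at 30.7 and 43.3. The opposite order, mock replicate 1 at least 2-fold above, was seen in kfl00616_0050_v1.1 and in kfl00700_0020_v1.1, which had 123.8, 43.1 and 71.2 in mock against 785, 685 and 620 in OPDA.

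Without mock replicate 1, 38 of the 42 kept a ratio of at least 4, and the ratio of no gene moved by more than 1.5 times. The ratio of kfl00616_0050_v1.1 went from 169.7 to 252.5 (means plus 1), and that of kfl00042_0270_v1.1 from 19.5 to 15.3. The 4 that went under 4 were kfl00155_0090_v1.1, kfl00361_0130_v1.1, kfl00482_0070_v1.1 and kfl01133_0010_v1.1, with ratios of 3.96, 3.60, 3.58 and 3.67.

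**Figure D3:**
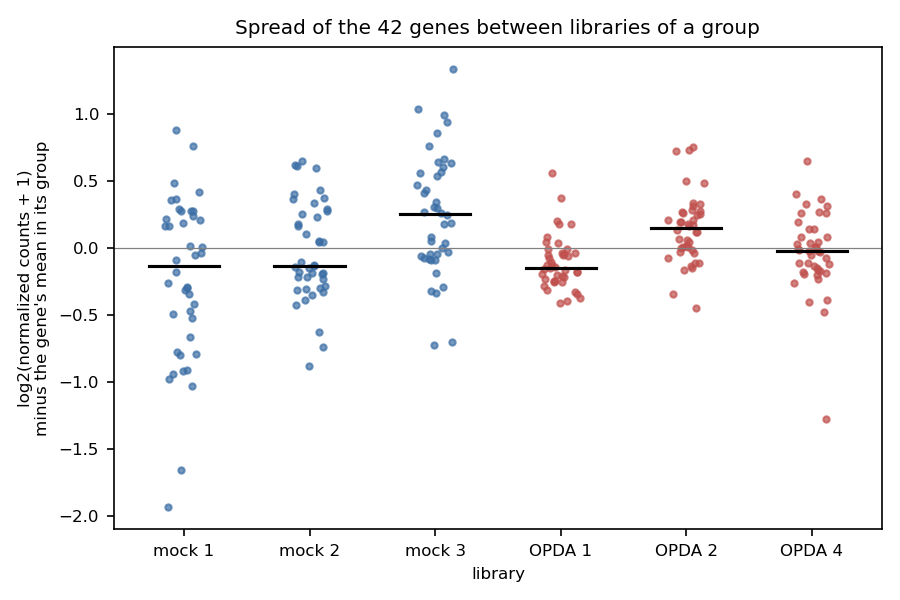
Deviation of each of the 42 genes in each library from its mean in its group, on the log2(normalized count + 1) scale, with a black line at the median of each library. Mock replicate 1 reaches down to -1.94 and mock replicate 3 has a median of 0.25, while the OPDA libraries stay between -0.48 and 0.76 apart from 1 point at -1.28 in OPDA replicate 4 (kfl00015_0020_v1.1).

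The 42 genes were spread over 41 scaffolds, and no 2 of them were direct neighbours in the gene order of assembly ASM70883v1. The genes next to them were not picked by the rule, so their response could be tested. There were 76 such neighbours, all of them in the count files, and 60 had enough reads for the test. Of these 60, 23 were higher in OPDA (38.3%, against 26.5% of all tested genes) and 10 were lower (16.7%, against 27.5%), by edgeR's quasi-likelihood test with Benjamini-Hochberg adjusted p under 0.05. At least 2-fold higher and past the threshold were 13 of the 60, where 3.51% of all tested genes were. The median log2 fold change of the 60 was 0.12, against 0.0045 for all tested genes. With total-count scaling, 18 were higher and 13 lower, and over all genes the calls split into 2232 higher and 4027 lower in place of 3115 and 3233. Neighbours up to 2 genes away numbered 112 tested genes, of which 33.9% were higher and 25.0% lower. That adjacent genes tend to change alike is known from earlier results on these libraries, so these counts are no independent evidence of it.

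**Figure D4:**
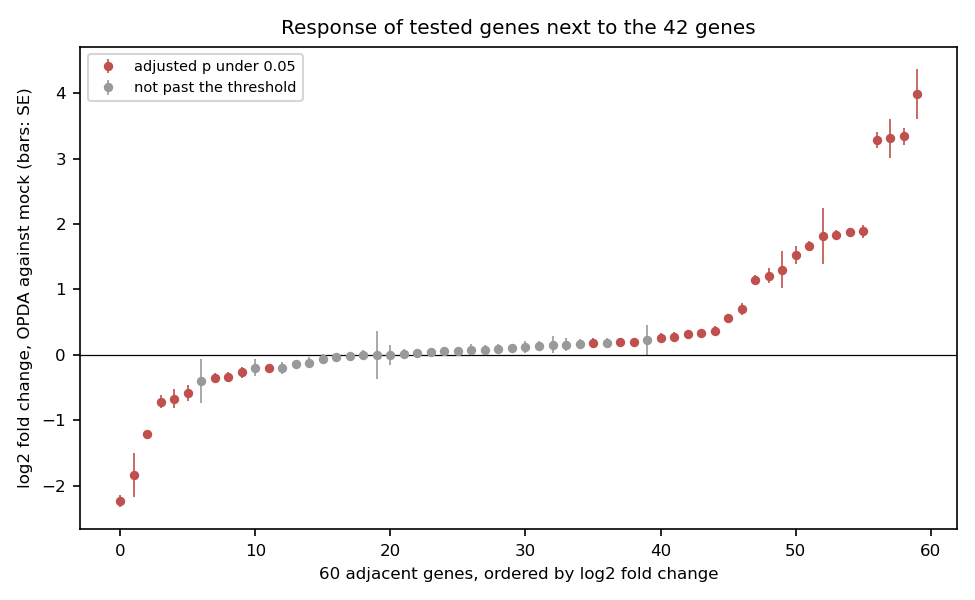
Log2 fold change (OPDA against mock, bars are SE, edgeR) of the 60 tested genes next to the 42 genes, in order of size, with red points past the adjusted threshold. The largest rise is 3.99 and the largest fall -2.24, and 23 red points lie above 0 and 10 below.

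The largest rises among the neighbours were close to 10-fold or above. The gene kfl00300_0110_v1.1 had 165, 331 and 426 normalized counts in mock against 4077, 4857 and 5714 in OPDA (log2 fold change 3.99, SE 0.38; edgeR's adjusted p = 0.000867). In kfl00439_0010_v1.1 the values were 216, 278 and 309 in mock against 2414, 2818 and 2901 in OPDA (log2 fold change 3.34, SE 0.13; edgeR's adjusted p = 2.87e-08). The gene kfl00007_0330_v1.1 had 379, 519 and 765 in mock against 4774, 5253 and 6438 in OPDA (log2 fold change 3.31, SE 0.30; edgeR's adjusted p = 0.000527). All 3 had a mock mean above the limit of 240, so the rule left them out. They lay beside kfl00300_0120_v1.1, kfl00439_0015_v1.1 and kfl00007_0335_v1.1.

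On scaffold kfl00055 the response extended over 4 genes in a row. Between kfl00055_0020_v1.1 and kfl00055_0035_v1.1, both of the set, lay kfl00055_0030_v1.1 with 640, 446 and 554 normalized counts in mock against 5436, 5538 and 4906 in OPDA. Its log2 fold change was 3.28, with SE 0.12 (edgeR's adjusted p = 6.48e-09). On the other side of kfl00055_0020_v1.1, kfl00055_0010_v1.1 had 1245, 929 and 1023 in mock against 3922, 3687 and 4256 in OPDA (log2 fold change 1.89, SE 0.10; edgeR's adjusted p = 7.23e-08). The gene kfl00055_0035_v1.1 itself had 189, 118.9 and 142.3 in mock against 1513, 1536 and 1358 in OPDA. The gene after it, kfl00055_0040_v1.1, had no read in any library.

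Some tested neighbours of the set did not rise with it. Beside kfl00007_0335_v1.1, on the side away from the raised neighbour, kfl00007_0340_v1.1 went from 2197, 2453 and 2566 normalized counts in mock to 519, 552 and 454 in OPDA (log2 fold change -2.24, SE 0.09; edgeR's adjusted p = 4.26e-10). Beside kfl00099_0250_v1.1, kfl00099_0240_v1.1 went from 65.8, 40.3 and 53.9 to 9.35, 22.5 and 12.3 (log2 fold change -1.84, SE 0.34; edgeR's adjusted p = 0.00054). Both fell, with groups that did not overlap. The single neighbour of kfl00896_0010_v1.1, kfl00896_0020_v1.1, did not pass the threshold (log2 fold change 0.12, SE 0.09; edgeR's adjusted p = 0.262). Of the neighbours of kfl00616_0050_v1.1, kfl00616_0060_v1.1 fell by 0.67 on the log2 scale (SE 0.15; edgeR adjusted p = 0.00209), and kfl00616_0040_v1.1, with a mean of 2.90 in mock and 11.7 in OPDA, had too few reads for the test.

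Where a gene of the set lies beside a raised neighbour, reads of the one could be counted for the other, and the sources used here give no strand or overlap setting of the counting. There were 14 such pairs, with 13 genes of the set and 13 neighbours that were past the threshold and at least 2-fold higher. For each pair the level of the gene was expressed as a percent of the level of its neighbour. In 5 pairs this percent differed by less than 1.5 times between the mock and OPDA means, and in the other 9 it was higher in OPDA.

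The gene kfl00007_0335_v1.1 stood at 0%, 0.924% and 1.13% of kfl00007_0330_v1.1 in mock and at 0.653%, 0.800% and 0.862% in OPDA. The gene kfl00300_0120_v1.1 stood at 0.595%, 0.580% and 1.35% of kfl00300_0110_v1.1 in mock and at 1.15%, 1.31% and 0.827% in OPDA. The gene kfl00439_0015_v1.1 stood at 4.09%, 6.90% and 5.92% of kfl00439_0010_v1.1 in mock and at 4.48%, 4.98% and 4.93% in OPDA. In these 3 pairs the ranges of the mock and OPDA percents overlap, and the gene was a small fraction of its neighbour in every library.

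In kfl00055_0035_v1.1 the level was 29.4%, 26.7% and 25.7% of kfl00055_0030_v1.1 in mock against 27.8%, 27.7% and 27.7% in OPDA, nearly the same in all 6 libraries. The last of the 5 pairs was kfl00482_0070_v1.1, which exceeded its neighbour kfl00482_0060_v1.1 in every library. Mock replicate 1 was the lowest mock library both in kfl00007_0335_v1.1, kfl00300_0120_v1.1 and kfl00439_0015_v1.1 and in their raised neighbours. The part of shared reads in these values was not tested.

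The other 9 pairs did not keep a constant percent. The gene kfl00434_0040_v1.1 went from 3.54%, 3.16% and 5.62% of kfl00434_0030_v1.1 in mock to 43.4%, 41.2% and 49.0% in OPDA. The gene kfl00453_0180_v1.1 went from 0.173%, 0.081% and 0.170% of kfl00453_0190_v1.1 in mock to 0.731%, 1.04% and 0.760% in OPDA. The gene kfl00351_0020_v1.1 went from 0.244%, 0.620% and 0.847% of kfl00351_0030_v1.1 in mock to 2.38%, 2.93% and 3.31% in OPDA. In these 3 pairs every OPDA percent lay above every mock percent, so the gene rose by more than its neighbour did.

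**Figure D5:**
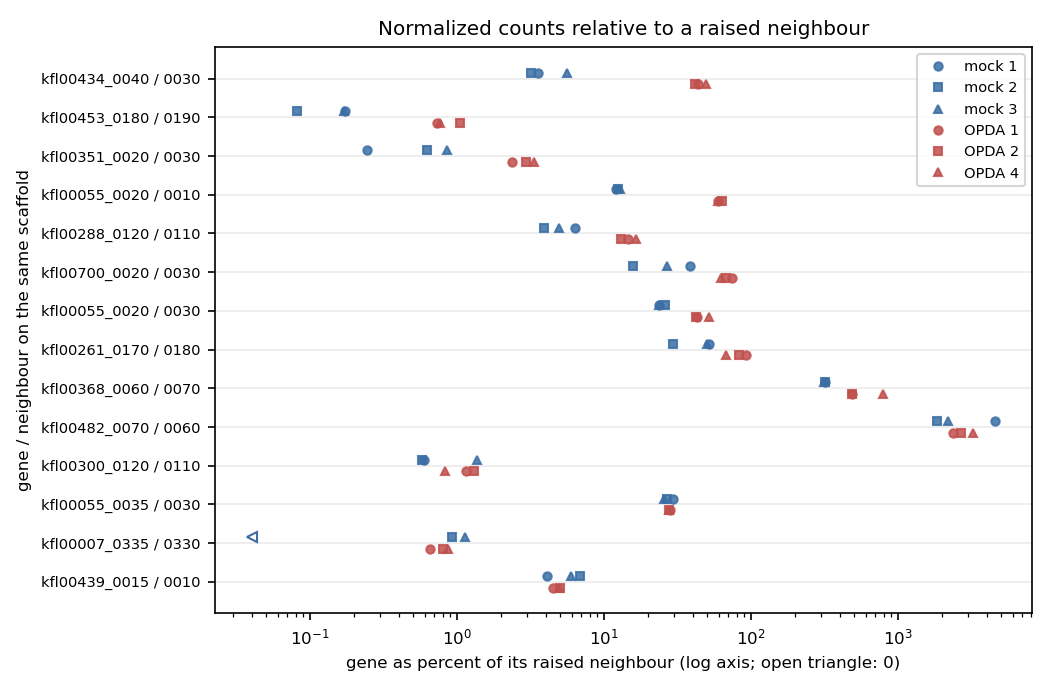
Level of a gene of the set as a percent of its raised neighbour (log axis) in each mock (blue) and OPDA (red) library, for the 14 pairs ordered by the change of the percent. The lowest 5 rows keep overlapping or near-equal percents, among them kfl00055_0035 at 25.7% to 29.4%, while the top row, kfl00434_0040, goes from at most 5.62% in mock to at least 41.2% in OPDA.

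The IDs of 4 of the 42 genes (9.52%) had a gene number ending in 5, against 1.59% of all tested genes. Such numbers fall between the regular steps of 10 in the numbering. They were kfl00007_0335_v1.1, kfl00055_0035_v1.1, kfl00439_0015_v1.1 and kfl00181_0135_v1.1, and this feature was noticed after their values had been seen. The first 3 are among the pairs of near-constant percent above. The fourth had 25.5, 28.8 and 22.1 normalized counts in mock against 98.7, 145.5 and 78.1 in OPDA, beside kfl00181_0130_v1.1 (log2 fold change 0.27, SE 0.08; edgeR's adjusted p = 0.0156). The 29 genes with no neighbour that was tested and called at least 2-fold higher had a median ratio of means of 6.91, and kfl00616_0050_v1.1, kfl00896_0010_v1.1, kfl00145_0170_v1.1, kfl00151_0280_v1.1 and kfl00010_0550_v1.1, the 5 with the highest ratios, were all among them.

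The last of the 42 genes are given here by their values. In kfl00287_0090_v1.1 the values were 53.0, 41.2 and 67.3 normalized counts in mock against 551, 749 and 528 in OPDA, a ratio of means of 11.3. The gene kfl01135_0020_v1.1 had 123.8, 177.4 and 232.7 in mock against 1092, 1127 and 1469 in OPDA, a ratio of means of 6.91. The gene kfl00250_0200_v1.1 had 195.5, 129.4 and 165.4 in mock against 819, 1072 and 916 in OPDA, a ratio of means of 5.72. In all 3 the lowest OPDA value was more than 4 times the highest mock value, as it was in 27 of the 42 genes. The gene kfl00351_0020_v1.1 had 7, 18 and 23 raw reads in mock against 219, 278 and 343 in OPDA, and kfl00439_0015_v1.1 had 9, 20 and 19 against 104, 137 and 139. In both, mock replicate 1 was the lowest mock library and OPDA replicate 1 the lowest OPDA library. In kfl01133_0010_v1.1 the raw reads numbered 4, 7 and 16 in mock against 36, 48 and 42 in OPDA. In kfl00045_0100_v1.1 mock replicate 1 stood apart, with 2, 14 and 19 raw reads in mock against 57, 71 and 66 in OPDA. In kfl00085_0280_v1.1 OPDA replicate 4 did, with 72.7, 47.9 and 77.9 normalized counts in mock against 269, 226 and 486 in OPDA. The gene kfl00257_0180_v1.1 varied least in mock, with 6.88, 7.67 and 7.69 normalized counts against 45.7, 48.2 and 54.5 in OPDA. The other 8 genes were kfl00534_0110_v1.1, kfl00288_0120_v1.1, kfl00327_0080_v1.1, kfl00152_0190_v1.1, kfl00319_0130_v1.1, kfl00072_0040_v1.1, kfl00368_0060_v1.1 and kfl00261_0170_v1.1. Their ratios of means ran from 4.18 to 8.58.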

How the data were processed

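RNA of the alga was sequenced in 6 libraries, 3 mock and 3 OPDA. The authors deposited raw read counts per gene for each library (17153 gene IDs) and a normalized table of 17152 genes. The submitters' processing notes name HISAT2, HTSeq, Trim Galore and DESeq2. Their versions, the genome build and the counting settings were not given in the sources used here. The deposited normalized signal equalled the raw count divided by 1 size factor per library, and 100% of values times that factor came out whole within 1e-06. The rule for the 42 genes was applied to this table. edgeR 4.0.16 (R 4.3.3, limma 3.58.1) was fitted to raw counts of all 6 libraries with TMM factors, a minimum count of 10 in its default filter (11752 genes tested), the quasi-likelihood test with robust estimation and no covariate. Each standard error was |log2 fold change| over the root of F. The steps were also run on simulated data, but the outcome is not reported here and no accuracy is claimed from it. Alternatives were other scalings, filters, DESeq2 1.42.0, limma-voom, a replicate block, other limits of the rule and leaving out each library. The same test on reads recovered from the normalized table, added after the data were seen, called 6350 genes.

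The genes and lists were chosen with earlier results of these data known. Full values were given for the 6 genes with the highest ratio, the 6 highest in OPDA, the 6 lowest in mock, genes near a limit, and up to 8 called neighbours. Others were added after their values were seen. Neighbours came from the gene order of assembly ASM70883v1, matched by locus tag for 16048 of 17153 IDs. Protein similarity, promoter motifs and lists by product name were not analysed here, as the tables used hold no sequences or product names. Precision is the spread between libraries, and counting error is large at a few reads.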

Additional observations from a re-analysis of the deposited data

How the results depend on the processing

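The rule found 33 to 62 genes in place of 42 under the other scalings, offsets and limits tried, apart from a ratio of at least 8, which by construction kept 21. Leaving out 1 library gave 39 to 46 genes, with 38 to 42 of the 42 among them. Total-count scaling kept 37 and dropped 5 genes with ratios close to 4. The 523 refitted log2 fold changes of the 42 genes all kept their direction and side of the threshold, which their selection largely set, and the stricter filter (at least 10 CPM in at least 3 libraries) tested only 19 of them. Genes past the threshold numbered 5023 (replicate block) to 6368 (limma-voom). The lowest with 1 library left out was 5536 and the highest 5999. Replicates 1 and 2 occur in both groups, but same-numbered libraries deviated with correlations of 0.076 and -0.0714, so the numbers are not treated as pairs. With the replicate block, 19 adjacent genes were higher and 8 lower, against 23 and 10. In that fit only replicates 1 and 2 informed the OPDA effect, as replicate 3 occurs in mock alone and replicate 4 in OPDA alone. Leaving out 1 library gave 21 to 23 higher and 9 to 11 lower. Taking neighbours up to 2 genes away gave 38 higher and 28 lower, with more genes counted. The comparison by protein similarity and its alternatives were not run. Genes with a few mock reads have ratios that depth limits.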
